A study of Mus musculus with 12 samples.

Results

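H3K27ac peaks of 5 consecutive stages of the gastrulating mouse embryo merged into 50341 regions, and 1528 of them (3.04%) are described here: regions that carried the mark at all 5 stages and lay over 50 kb from the nearest outer end of a protein-coding gene. They were selected by values measured in these lists, namely a peak in each of the ES, MS, LS, OB and EHF lists, and by position. Presence, width and fold of H3K27ac at those 5 stages therefore chose the members and are given as a description, with no test. Of the 9559 merged regions over 50 kb from gene ends, 16% had a peak in all 5 lists. The members were either inside long protein-coding genes (726, or 47.5%) or between genes (802). Together they spanned 1.95 Mb, with a median width of 969 bp (quartiles 746 and 1491.5 bp, widest 11791 bp) and a median distance of 90.8 kb to a gene end.

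The cells came from C57BL/6 mouse embryos that were staged by shape as Pre_PS (before the streak), ES, MS and LS (early, middle and late streak), OB (without a bud of the allantois) and EHF (early headfold). By the labels' embryonic days, Pre_PS was E6.0, ES was E6.0 to E6.5, MS was E6.0 to E7.0, LS was E7.0 to E7.25, OB was E7.25 to E7.5 and EHF was E7.5. No genotype or treatment beyond the strain is named. Extraembryonic tissue was dissected away at Pre_PS, ES, MS and LS, and the labels do not say so for OB and EHF. Single cells were profiled with CoBATCH, in which an antibody carries the Tn5 transposase to chromatin that bears a mark, and the deposited lists give peaks for 1 library per stage and mark, 12 in all. There were no replicates, so a difference between stages could not be set against a spread.

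H3K27ac, acetylation of lysine 27 of histone H3, is laid down at active promoters and active enhancers. H3K4me1, monomethylation of lysine 4, lies over enhancers, also before they become active, and on the flanks of promoters. Gene deserts and long introns are known to hold enhancers that act over long distances, often on genes of transcription factors that are used in several tissues. They also hold promoters of long noncoding RNAs, and internal promoters of long genes, from which shorter transcripts start.

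The 5 H3K27ac lists that chose the members held 30072 to 39635 peaks, against 13398 at Pre_PS, and the H3K4me1 lists held 35646 to 47849. How many fragments each library held is not stated, so depth is unknown. At Pre_PS, 67.3% of the H3K4me1 peaks sat at the lowest fold of their list, against 2.64% to 9.77% at the later stages. Peaks of H3K27ac lay within 1 kb of an end of all 12 embryo marker genes (T, Eomes, Mixl1, Mesp1, Pou5f1, Otx2, Sox2, Foxa2, Sox17, Hand1, Kdr and Tfap2a) at each of the 5 later stages and of 10 of them, all but Otx2 and Tfap2a, at Pre_PS. The count was 10 to 12 of 29 adult tissue genes at the later stages. Of 7 visceral endoderm genes, 4 or 5 had such a peak at these stages, with Ttr and Afp at none, and of 6 trophoblast genes, 4 or 5. The trophoblast genes were Elf5, Tfap2c, Ascl2, Eomes, Esx1 and Hand1, and Eomes and Hand1 are also among the embryo markers. Esx1 had no such peak at any stage, and Elf5 had none at Pre_PS, MS and EHF. No member had an adult tissue gene as its nearest or host gene. Of the 8108 stable regions at 1 to 50 kb from gene ends, 7 did (0.0863%), so the members' count is near that share.

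Transcript starts were found inside 208 of the 1474 members (14.1%) that lie on chromosomes for which RefSeq starts were at hand. Of the stable regions at 1 to 50 kb from gene ends on these chromosomes, 16.2% held a start. In 124 members the start was that of a protein-coding transcript, far inside the gene's outer ends, and in 84 it was a start of noncoding transcripts only. These members held 252 starts. The 250 bases before the start are shown for 8 of them, chosen after their values were seen, because they show the range from CpG-rich internal promoters to CpG-poor starts of long noncoding RNAs. Capitals mark each CpG, the dinucleotide that clusters in the islands at most mammalian promoters; sequences are from RefSeq, build GRCm38.p6, on the strand of the transcript. Dab1 (an adaptor of Reelin signalling, chr4:104367288-104367537, plus strand), Runx1 (a transcription factor of blood formation, chr16:92697330-92697579, minus strand), Zfhx3 (a homeodomain and zinc finger factor, chr8:108714394-108714643, plus strand) and Gse1 (a subunit of a histone deacetylase complex, chr8:120488616-120488865, plus strand) are protein-coding genes.
Dab1: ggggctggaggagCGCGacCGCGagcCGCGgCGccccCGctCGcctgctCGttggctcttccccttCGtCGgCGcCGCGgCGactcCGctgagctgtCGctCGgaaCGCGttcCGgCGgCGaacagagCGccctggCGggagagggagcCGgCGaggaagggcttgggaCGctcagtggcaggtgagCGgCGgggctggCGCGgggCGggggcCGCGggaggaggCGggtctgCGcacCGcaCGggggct
Runx1: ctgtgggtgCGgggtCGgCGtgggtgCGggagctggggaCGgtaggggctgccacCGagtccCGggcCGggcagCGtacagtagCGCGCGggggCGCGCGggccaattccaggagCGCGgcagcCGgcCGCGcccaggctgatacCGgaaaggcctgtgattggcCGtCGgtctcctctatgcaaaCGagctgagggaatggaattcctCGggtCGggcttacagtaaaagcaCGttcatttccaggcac
Zfhx3: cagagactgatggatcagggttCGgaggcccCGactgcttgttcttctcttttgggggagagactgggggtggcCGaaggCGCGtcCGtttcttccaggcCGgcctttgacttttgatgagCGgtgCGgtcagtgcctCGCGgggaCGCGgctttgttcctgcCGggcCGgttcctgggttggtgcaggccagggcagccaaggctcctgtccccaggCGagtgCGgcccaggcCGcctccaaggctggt
Gse1: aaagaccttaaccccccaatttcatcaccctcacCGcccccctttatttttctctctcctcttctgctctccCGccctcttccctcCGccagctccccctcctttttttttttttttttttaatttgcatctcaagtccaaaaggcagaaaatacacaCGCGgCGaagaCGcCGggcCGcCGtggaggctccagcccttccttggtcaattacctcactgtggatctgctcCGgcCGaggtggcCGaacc

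Tunar, a long noncoding RNA studied in pluripotent and neural cells (chr12:105336743-105336992, plus strand), Lncpint, which p53 induces (chr6:31218475-31218724, minus strand), Gm14321 between Cebpb and Ptpn1 (chr2:167777241-167777490, plus strand) and Gm14488 (chr2:30721188-30721437, minus strand) are noncoding genes.
Tunar: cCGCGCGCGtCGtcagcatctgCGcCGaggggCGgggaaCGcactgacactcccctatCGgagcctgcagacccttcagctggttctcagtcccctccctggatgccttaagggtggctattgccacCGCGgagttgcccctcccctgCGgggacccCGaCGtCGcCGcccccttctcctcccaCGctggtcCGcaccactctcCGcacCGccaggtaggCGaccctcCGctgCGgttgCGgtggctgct
Lncpint: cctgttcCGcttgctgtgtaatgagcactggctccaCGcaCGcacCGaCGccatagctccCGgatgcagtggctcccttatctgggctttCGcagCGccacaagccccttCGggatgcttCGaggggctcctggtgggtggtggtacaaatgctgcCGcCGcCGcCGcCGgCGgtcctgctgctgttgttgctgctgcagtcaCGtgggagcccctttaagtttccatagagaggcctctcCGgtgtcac
Gm14321: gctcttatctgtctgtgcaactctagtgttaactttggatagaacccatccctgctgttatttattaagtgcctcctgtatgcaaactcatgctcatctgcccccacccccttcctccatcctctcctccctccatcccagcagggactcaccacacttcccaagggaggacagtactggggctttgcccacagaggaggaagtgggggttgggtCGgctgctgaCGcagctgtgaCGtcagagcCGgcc
Gm14488: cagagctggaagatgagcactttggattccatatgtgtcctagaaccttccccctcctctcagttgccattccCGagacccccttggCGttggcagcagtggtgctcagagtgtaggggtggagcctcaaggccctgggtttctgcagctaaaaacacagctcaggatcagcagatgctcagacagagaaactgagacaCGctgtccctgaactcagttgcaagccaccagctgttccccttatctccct

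The number of CpGs in these 250 bases was 40 for Dab1, 27 for Runx1, 18 for Zfhx3 and 13 for Gse1. It was 25 for Tunar, 18 for Lncpint, 4 for Gm14321 and 3 for Gm14488. Tunar had another start in the same member, with 10 CpGs, and of its starts the one with more CpGs is shown. Starts inside members were thus not all of the CpG-island kind: counting windows with over 50% G and C and an observed over expected CpG ratio over 0.6, 100 of 252 (39.7%) were CpG-dense. Over all 32619 listed starts the share was 31.0%. For noncoding starts it was 31.4% inside members and 11.6% over all, and for coding starts 47.0% and 41.6%. Starts inside stable regions nearer to genes were CpG-dense more often, with 54.7% at 1 to 50 kb and 70.4% within 1 kb of a gene end. Their mix of starts differs from that of members. At 1 to 50 kb, 941 regions held a coding start and 335 a noncoding start only, and within 1 kb 8732 and 213. The shares of these nearer sets were not split by kind of start. These shares are descriptions, since starts of 1 gene overlap.

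Motifs were searched in the same 250 bases on both strands. GGGCGG, the GC box, was in 132 of the 252 windows (52.4%), against 33.0% of all windows. TATAAA, the TATA box, was in 5.95% against 12.4%, and CCAAT in 24.6% against 34.0%. In members against all windows, CCGGAA was in 11.5% against 12.1%. The palindrome TGACGTCA, the cyclic AMP response element, was in 1.59% against 1.56%, and ATGCAAAT, the octamer of POU factors, in 1.98% against 1.61%. None of these motifs is part of another. Of the windows shown, Gse1 held the octamer letters on the opposite strand from 128 bases before the start, and Gm14321 held TGACGTCA from 17 bases before it. A match is a description of letters, not of a bound factor.

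Apart from the 2 members with ribosomal RNA genes, members with a protein-coding start had the strongest H3K27ac of the annotation classes (the plot by annotation). Fold is the authors' ratio of signal over background for each peak. A member with several peaks in a list was given the highest of their folds. For members with a coding start the median fold was 10.9, 9.76, 13.8, 10.4 and 12.6 at ES, MS, LS, OB and EHF. Members with a noncoding start had 8.60, 7.59, 10.3, 8.32 and 9.92, and the 1103 members with no annotated start or end had 6.19, 5.61, 7.12, 6.01 and 5.91. The order of these classes was the same in each of the 5 lists. Median widths were 1293, 1201 and 930 bp, in the same order as the folds. Wider members can hold more peaks, and the part of width in this order was not tested.

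**Figure D1:**
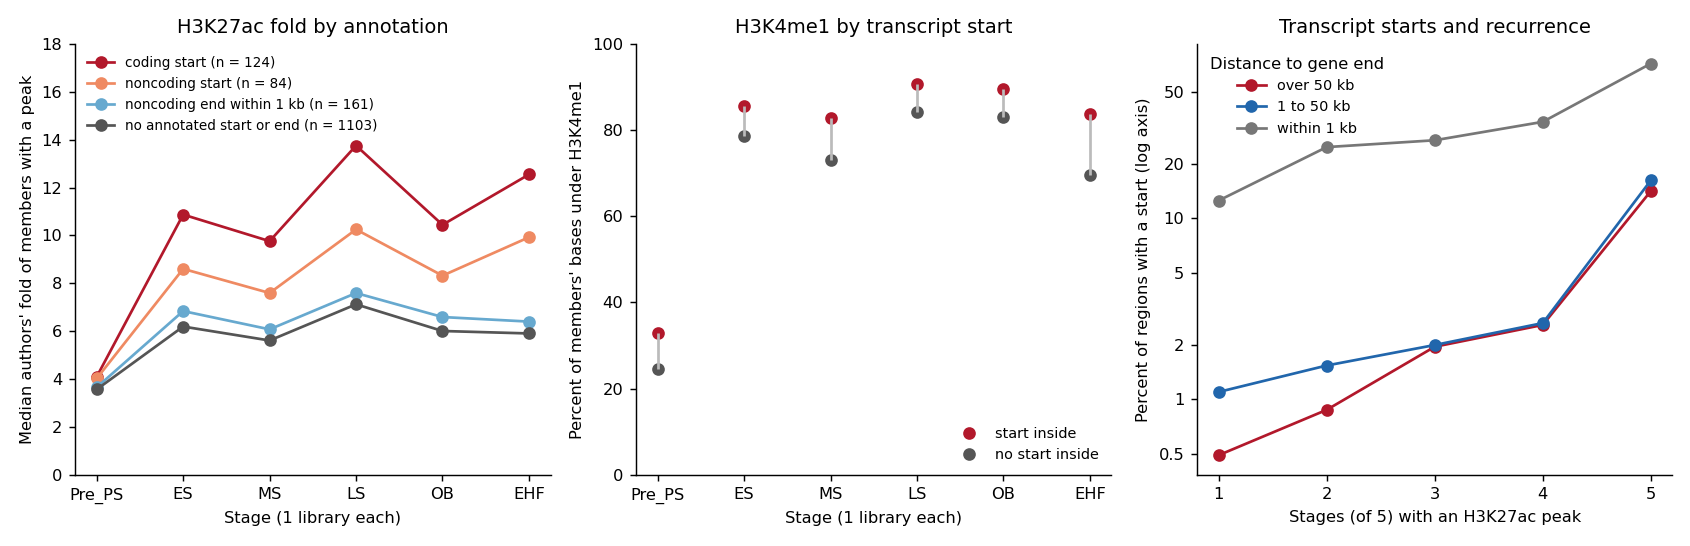
Left, median of the authors' H3K27ac fold over members with a peak (y axis) at each stage (x axis), by annotation class; middle, percent of the members' bases under H3K4me1 peaks by stage, for members with and without a transcript start; right, percent of regions with a transcript start (log axis) against the number of the 5 stages with an H3K27ac peak, by distance to gene ends. A member's fold is the highest among its peaks in a list. Members with a coding start lie highest on the left (13.8 at LS against 7.12 without annotation). In the middle, members with a start lie above those without one at all 6 stages. On the right the far regions climb from 0.491% at 1 stage to 14.1% at 5. Regions at 1 to 50 kb climb from 1.10% to 16.2%, and those within 1 kb from 12.5% to 71.4%.

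H3K4me1, which the choice of members did not use, also covered more of the members with a start. It lay over 32.8%, 85.7%, 82.7%, 90.6%, 89.6% and 83.8% of their bases from Pre_PS to EHF. Over the members without a start it covered 24.7%, 78.6%, 73.2%, 84.2%, 82.9% and 69.6%. The difference was positive in 6 of 6 libraries, with a mean of 8.67 percentage points and a range from 6.40 to 14.2 (exact two-sided sign-flip permutation test over the 6 libraries, p = 0.03125, the smallest this test can give; Benjamini-Hochberg adjusted p = 0.0417 over 4 tests). The 6 libraries stand for 6 stages of the same regions and are not replicates of 1 condition. The mean was 8.36 points when members without a start were weighted to the widths of those with one, and 2.97 points when each list of a mark was cut to the same number of peaks.

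Regions over 50 kb from gene ends held starts more often the more stages they recurred in, when width was left aside. A start was inside 0.491% of those seen at 1 of the 5 stages, 0.874% at 2, 1.95% at 3, 2.57% at 4 and 14.1% at 5. Width moves with this count, since the median width was 388, 525, 621.5, 717.5 and 972.5 bp. Among regions of over 1000 to 1500 bp, 84 of 351 members held a start (23.9%, 95% Wilson interval 19.8% to 28.7%), against 9 of 444 regions seen at 1 to 4 stages (2.03%, 1.07% to 3.81%). Among regions of over 500 to 750 bp the shares were 3.06% (1.71% to 5.39%) and 1.45% (1.03% to 2.04%), and their intervals overlapped. At 4 stages alone it was 3.17% in the first of these width classes and 3.18% in the second, above the 3.06% of members. Over 1500 bp it was 1.06% at 4 stages and 1.27% at 1 to 4, against 19.2% of members. The intervals cover counting error only. With width left aside, regions nearer to gene ends climbed as well. At 1 to 50 kb a start was inside 1.10% of regions seen at 1 stage and 16.2% at 5. Within 1 kb of a gene end these shares were 12.5% and 71.4%, so the climb was not particular to far regions.

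Of the coding starts, that of Septin9, a GTP-binding cytoskeletal protein, lay in a member with some of the highest folds (chr11:117265654-117267897, 66.0 kb from the nearest gene end, Septin9's own). Its H3K27ac fold was 5.79 at Pre_PS and 23.8, 20.8, 27.6, 27.5 and 31.9 from ES to EHF. All 12 lists had a peak there, with 1954 bp of H3K27ac at Pre_PS and 1983 to 2244 bp later. Robo1, a receptor for Slit guidance proteins, had an internal start in chr16:72662813-72664878, 383 kb from the nearest gene end, its own. There the H3K27ac fold was 4.67, 17.4, 20.9, 24.1, 13.5 and 20.6 from Pre_PS to EHF.

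The Runx1 member (chr16:92695298-92699159), which holds the internal start printed above, was covered almost from edge to edge. H3K27ac covered 3384 bp of its 3862 bp at Pre_PS and 3824, 3852, 3840, 3810 and 3805 bp later, so all 6 stages were alike in extent. H3K4me1 covered 1818 bp at Pre_PS and 3838 to 3862 bp later. The Zfhx3 member (chr8:108714058-108715759, 246 kb from a gene end) had 1138 bp at Pre_PS and 1565, 1661, 1587, 1526 and 1634 bp later, and the Dab1 member (chr4:104366622-104369321, 376 kb) 1826 bp and then 2506, 2700, 2546, 2566 and 2406 bp.

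Among noncoding starts, the Dleu2 member (chr14:61680789-61683564) had 2315 bp of H3K27ac at Pre_PS and 2594, 2311, 2572, 2415 and 2453 bp later. Dleu2 is a long noncoding RNA whose human counterpart lies in a segment often lost in chronic lymphocytic leukaemia. The Tunar member (chr12:105336127-105337752) had 1182 bp at Pre_PS and 1503, 1459, 1443, 1596 and 1565 bp later, and H3K4me1 in all 6 lists (1111 to 1626 bp). The Lncpint member (chr6:31216016-31220837) was wider in the 2 earliest of the 5 lists, with 4813 and 4726 bp at ES and MS and 3486, 3463 and 3513 bp at LS, OB and EHF. All 3 of these members had peaks in all 12 lists.

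The RefSeq table listed 1005 microRNA hairpins, and 6 of their genes overlapped members, in 5 regions. Mature sequences are shown for the microRNAs of the region that fell most and for miR-137, a microRNA known from the brain, with the seed, bases 2 to 8, in capitals. miR-129-5p and miR-129-2-3p come from 1 hairpin, Mir129-2, and miR-129b from the opposite strand of the same place. No pair of the seeds shown was the same.
mmu-miR-129-5p: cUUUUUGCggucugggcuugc
mmu-miR-129-2-3p: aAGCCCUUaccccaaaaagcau
mmu-miR-129b-5p: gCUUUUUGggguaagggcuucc
mmu-miR-137-3p: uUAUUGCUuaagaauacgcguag

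The Mir129-2 region (chr2:94239233-94244015, 56.8 kb from the nearest gene end, that of Ttc17) narrowed under H3K27ac as stages advanced. From Pre_PS to EHF the mark covered 0, 4677, 4569, 2304, 1779 and 1473 bp of its 4783 bp. Both late stages and LS were thus below both early ones. The highest fold of its peaks was 8.80, 7.77, 12.35, 10.1 and 15.4 in the lists from ES to EHF. H3K4me1 covered 499, 3452, 2846, 4599, 3284 and 4710 bp and did not narrow in the same way.

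The Mir137 region (chr3:118433446-118434788, 127 kb from Dpyd) carried H3K27ac over 796, 1178, 1343, 1180, 1163 and 1128 bp from Pre_PS to EHF. Its fold was 8.10, 9.99, 7.59, 4.88 and 4.94 from ES to EHF, each the value of its own list. H3K4me1 was absent there at Pre_PS and covered 1204 to 1309 bp later. Of the other microRNA genes that overlap members, Mir3089 lies in the 9937 bp member described further on, Mir1904 at the edge of a member inside Pde4d, a phosphodiesterase, and Gm38671, the gene of miR-9768, in Mcf2l.

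Of the members without a start, 161 had an end of a noncoding gene within 1 kb and 1103 (72.2% of all members) had no annotated start or end there. Some members were far wider than the median (the plot of the 10 members with most covered bases). The widest, chr8:120285268-120297058, lay inside Gse1, 56.8 kb from its nearest outer end, with no annotated start or end of another gene inside it. H3K27ac covered 1036, 10565, 7652, 9047, 7198 and 9473 bp there from Pre_PS to EHF, so the Pre_PS value was the lowest and ES the highest. H3K4me1 covered 4951, 9106, 10832, 11791, 9610 and 7962 bp, the whole of it at LS.

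The next widest, chr2:30716313-30726249, lay between Cstad and 1700001O22Rik and holds Mir3089 and the starts of the noncoding genes Gm14488 and Gm39782. H3K27ac covered 0, 5650, 5164, 6384, 8115 and 9930 bp, nearly all of its 9937 bp at EHF and none at Pre_PS. Next in covered bases among members without a ribosomal RNA gene were 2 more members in Gse1 and 1 in Ptprn2, a phosphatase-like protein of secretory vesicles. The Ptprn2 member (chr12:117150986-117156198) had 0, 5136, 4936, 5126, 5213 and 5126 bp, almost the same at each of the 5 later stages. The member between Cebpb, a leucine zipper transcription factor, and Ptpn1, a phosphatase (chr2:167774573-167779250), holds the Gm14321 start shown above and had 1445, 4509, 4637, 4578, 4578 and 4429 bp.

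In Sh3pxd2a, which encodes an adaptor of invasive cell protrusions, the member chr19:47313452-47320800 varied more. It had 806, 3075, 6687, 5905, 3220 and 3516 bp of H3K27ac, with MS and LS high and the other stages at 3516 bp or less.

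**Figure D2:**
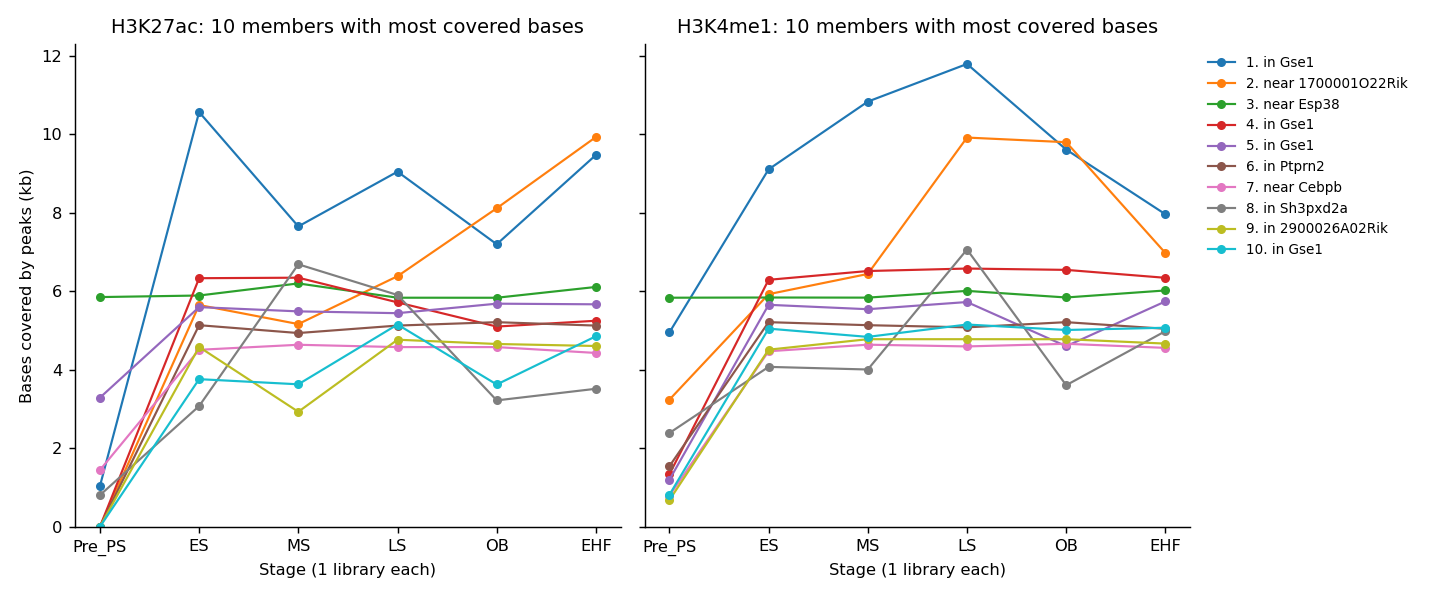
Bases covered by H3K27ac (left) and H3K4me1 (right) peaks, in kb (y axis), at each stage (x axis, 1 library each) in the 10 members with the most H3K27ac covered bases on average over the 5 later stages. The member near Esp38, which holds a ribosomal RNA gene, is nearly level at all 6 stages, whereas the widest one in Gse1 goes from 1036 bp at Pre_PS to 10565 bp of H3K27ac at ES.

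Gse1 held more members than any other gene or gap, 31 in all. They lay between chr8:120280278-120528820, inside the 353 kb gene (chr8:120228501-120581383), in stretches of 468 to 11791 bp (the map of the peaks across Gse1). H3K27ac covered 6.54 kb of these members at Pre_PS and 71.4, 68.8, 71.7, 63.0 and 71.0 kb from ES to EHF. H3K4me1 covered 17.9 kb at Pre_PS and 76.9, 76.7, 88.5, 85.1 and 72.8 kb. Peaks of H3K27ac were present at Pre_PS in 6 of the 31, and of H3K4me1 at all 6 stages in 16. The member with the internal start (chr8:120483291-120489988) had, at Pre_PS, 3289 bp of H3K27ac, and 5596, 5488, 5442, 5684 and 5668 bp later.

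**Figure D3:**
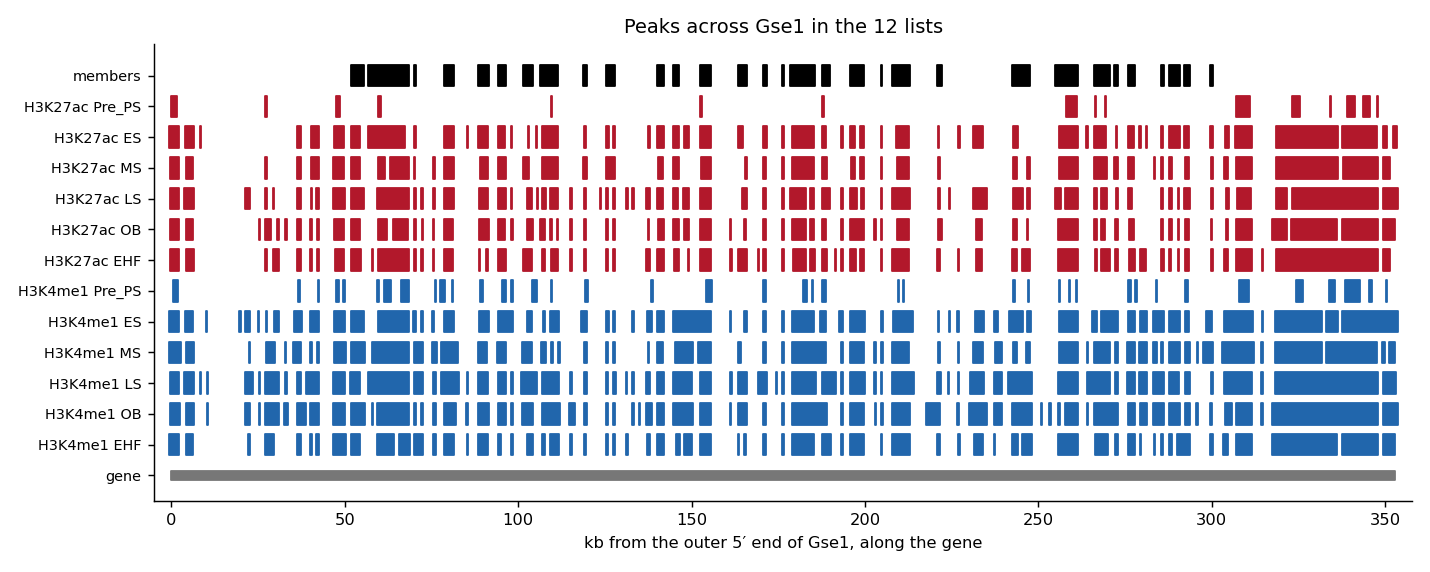
Peaks of the 12 lists across Gse1, with position along the gene in kb from its 5′ outer end (x axis) and 1 row per list, the members on top in black and the gene at the bottom. The 31 members stand from about 52 to 300 kb, the Pre_PS rows are sparse, and the later rows repeat the same stretches.

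Members were spread over many places, some of which held several. The 1528 members fell into 437 genes and 501 gaps between genes, of which 647 held 1 member each. A further 115 places with 3 or more members held 529 of them (34.6%). Another member lay within 10 kb of 295 members (19.3%) and within 50 kb of 609 (39.9%), and the median distance to the next member was 134 kb. These members share a neighbourhood and are not independent of one another.

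After Gse1, the gap between Foxl1, a forkhead factor, and 1700018B08Rik held 16 members over 251 kb, with H3K27ac over 13.3, 14.8, 15.0, 13.6 and 16.0 kb from ES to EHF and 0.636 kb at Pre_PS. The gap between Mn1, a transcriptional coactivator, and Cryba4 held 15, with 13.4, 12.4, 15.6, 12.34 and 13.2 kb. The gap between Cebpb and Ptpn1 held 14, with 20.8, 18.2, 26.2, 22.0 and 20.5 kb, highest at LS. That between Rragc and Pou3f1, a POU factor of neural progenitors, held 13, with 10.1, 9.61, 10.0, 8.54 and 8.76 kb. Zfhx3 held 10, with 12.5, 10.9, 11.7, 11.4 and 12.04 kb.

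Of the 5 members farthest from gene ends, 3 were narrower than the members' median of 969 bp. The farthest, chr14:82290526-82291081, lay 2152 kb from Pcdh17, a protocadherin, and had 536, 420, 327, 457 and 354 bp of H3K27ac from ES to EHF. The next lay 1612 kb from Zeb2, a zinc finger repressor of E-cadherin (chr2:46729870-46730846), with 492, 971, 693, 683 and 336 bp, and 1557 kb from Cdh6, a cadherin (chr15:14732922-14733499), with 574, 380, 477, 474 and 398 bp. The others lay 1450 kb from Aga (chr8:52061642-52062004), with 345, 340, 355, 343 and 363 bp, and 1425 kb from Pcdh20 (chr14:89896600-89899248), with 2361, 526, 595, 816 and 813 bp. None of the 5 had H3K27ac at Pre_PS, which was also lacking in 1117 of all 1528 members (73.1%). Members became rarer with distance: 22.1% of all regions at 50 to 75 kb were in all 5 lists, 20.4% at 75 to 100 kb, 16.7% at 100 to 200 kb, 9.13% at 200 to 500 kb and 5.50% beyond 500 kb.

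Between the 2 earlier lists (ES and MS) and the 2 later ones (OB and EHF), the share of a library was compared, counted as covered bp of a member per covered Mb of the list. In 297 members (19.4%) both late shares were above both early ones, against 21.8% of all 22467 regions with a peak in all 5 lists. In 231 members (15.1%) both were below, against 10.2%. The first count is near its background and the second above it, and the difference was not tested, since each stage has 1 library.

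The 5 largest rises (the plot of shares) included 2 members between Irf8 and Foxf1. Foxf1 is a forkhead factor of lateral plate and extraembryonic mesoderm. The member chr8:120937150-120940773, 144 kb from Foxf1, had 512, 674, 3384, 1812 and 2289 bp of H3K27ac from ES to EHF, and chr8:120971932-120974181, 110 kb away, had 765, 867, 911, 1931 and 2240 bp. The first was low at ES and MS and high from LS, the second low until LS and high at OB and EHF. H3K4me1 was already over 2151 and 1945 bp of the second at ES and MS. The other rises were the 9937 bp member described above, a member 170 kb from Mn1 (chr5:111627492-111630105) with 562, 589, 2548, 2262 and 2537 bp, and one in Ephb2, a receptor for ephrins (chr4:136779073-136782325), with 1879, 1674, 3170, 3070 and 3112 bp.

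The 5 largest falls began with the Mir129-2 region. In Gse1, chr8:120334684-120340099 had 4592, 4481, 3272, 2499 and 3062 bp from ES to EHF. In Ccdc88c, which encodes a binding partner of Dishevelled, chr12:100965794-100968455 had 2587, 2185, 2652, 605 and 980 bp, high through LS and low at OB and EHF. In Dgkg, a diacylglycerol kinase, chr16:22570482-22573010 had 2304, 2308, 902, 1034 and 508 bp, low from LS. In Cdh22, a cadherin, chr2:165180631-165184713 had 3752, 3918, 3979, 3784, 2314 and 2368 bp from Pre_PS to EHF, so Pre_PS was as high as ES and MS.

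**Figure D4:**
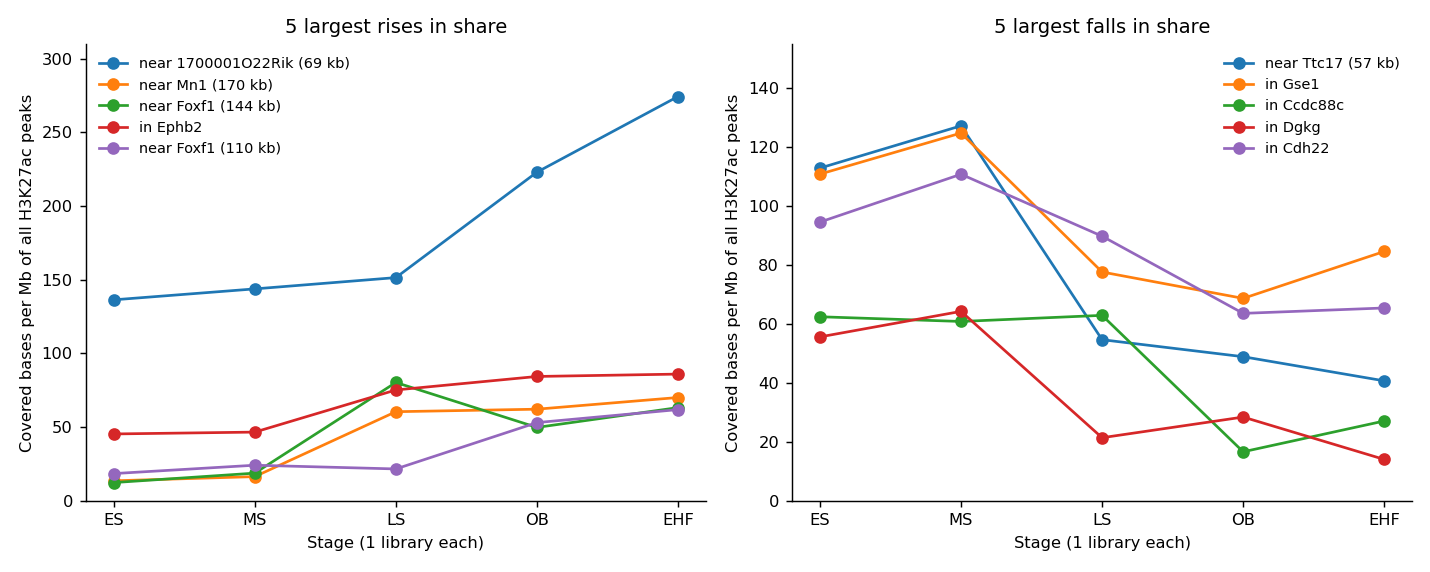
Covered bases of a member per Mb of all H3K27ac peaks of the library (y axis) from ES to EHF (x axis, 1 library each), for the 5 largest rises (left) and falls (right). The member near 1700001O22Rik climbs from 136 to 274, and the Mir129-2 region, near Ttc17, goes from 113 at ES to 40.7 at EHF.

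Members were assigned to gene lists by their host or nearest gene, which need not be a gene they act on. Zinc finger and forkhead regulators had 65 members at 29 of 54 genes, or 4.25% of members against 1.18% of the stable regions at 1 to 50 kb. Cell adhesion and guidance genes had 46 at 29 of 60 genes (3.01% against 0.826%). Long synaptic genes, listed as a reference for large introns, had 47 at 26 of 43 genes (3.08% against 0.210%), 38 of them inside the gene. A long gene offers more bases over 50 kb from its ends, and this was not adjusted for.

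In the first of these lists, Zfhx3, Zfp423 and Casz1, all zinc finger factors, were the host or nearest gene of 10, 8 and 8 members. The Zfp423 member chr8:87831339-87834243 had 2092, 2564, 2592, 2852, 2457 and 2282 bp of H3K27ac from Pre_PS to EHF, and the Casz1 member chr4:148858013-148860724 had 811, 2421, 2451, 2526, 2479 and 2227 bp. Among adhesion genes, Sdk2, which encodes a synaptic adhesion protein, had a member (chr11:113826902-113830300) with 2031, 2198, 3399, 1838 and 1957 bp, highest at LS. Among long genes, a member in Auts2 (chr5:131536833-131539303) had high folds, 25.5, 22.1, 32.3, 27.1 and 33.8 from ES to EHF, and one in Nrg1, a ligand of ErbB receptors (chr8:32008122-32010540), 16.5, 15.5, 20.9, 16.9 and 21.2.

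Neural ectoderm genes had 26 members at 14 of 45 genes (1.70% of members against 1.21% at 1 to 50 kb). The widest lay 73.9 kb from Pax2, a factor of kidney and midbrain (chr19:44669530-44672744), with 619, 3210, 3068, 3214, 3151 and 3130 bp of H3K27ac from Pre_PS to EHF, level from ES on. Near Hes1, a repressor downstream of Notch, chr16:30008098-30009485 had 1021, 970, 1309, 1060, 1125 and 1348 bp, in all 6 lists. The Pax2 and Hes1 members hold starts of the noncoding genes Gm41854 and 4632428C04Rik, in that order. Near Nr2f2, a nuclear receptor, chr7:70280323-70281910 had 0, 1280, 1547, 1562, 1331 and 1354 bp, with 0 at Pre_PS.

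Lateral plate, cardiac and extraembryonic mesoderm genes had 14 members at 7 of 26 genes (0.916% of members against 0.654% at 1 to 50 kb). The one with the most covered bases lay in the gap beside Mef2c, a factor of heart and muscle (chr13:83729501-83733050), with 3528, 3352, 3345, 1952 and 3280 bp from ES to EHF, lowest at OB. A start of the noncoding gene C130071C03Rik lies inside it. Primitive streak genes had 3 members (0.196% against 0.259%), at Lhx1, Gsc and Dll1 of 24 genes. The Lhx1 member (chr11:84641932-84644462) was wider at OB and EHF, with 1001, 1065, 1382, 1082, 2265 and 2438 bp from Pre_PS to EHF. The Gsc member (chr12:104531558-104532561) had 1004, 803, 821, 783 and 711 bp from ES to EHF. Lhx1 and Gsc are homeobox genes of the anterior streak and organizer.

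Pluripotency genes had 5 members (0.327% against 0.210% at 1 to 50 kb), among them members at Esrrb, Foxd3 and Klf4. The Esrrb member (chr12:86421403-86423137), with an internal coding start, had 1482, 1389, 1697, 1430, 1604 and 1585 bp, alike at all 6 stages. Blood and endothelial genes had 3 (0.196% against 0.296%), one of them the Runx1 member and another 73.9 kb from Sox17 (chr1:4571297-4572294), with 771, 751, 684, 926, 904 and 896 bp. Endoderm and node genes had 6 (0.393% against 0.296%), including one 126 kb from Shh, a secreted signal of node and notochord (chr5:28593384-28594286), with 652, 690, 859, 616, 598 and 479 bp. Surface ectoderm genes had 6 (0.393% against 0.395%), including one 75.6 kb from Tfap2c (chr2:172634201-172636684), with 590, 2438, 2282, 2455, 2330 and 2076 bp.

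Of the signalling pathways, Wnt genes had 13 members at 8 of 38 genes (0.851% of members against 0.666% at 1 to 50 kb), and TGF-beta, Nodal and BMP genes 12 at 10 of 43 (0.785% against 0.641%). Notch and Hedgehog genes had 8 at 5 of 29 (0.524% against 0.530%) and FGF genes 3 at 3 of 23 (0.196% against 0.247%). Near the ligand Wnt7b, chr15:85634185-85635322 had 587, 1125, 1132, 1024, 1039 and 1097 bp from Pre_PS to EHF, alike from ES on. A start of the noncoding gene D130051D11Rik lies inside this member. Near the ligand Bmp7, chr2:172727345-172729168 had 970, 1744, 812, 1029 and 894 bp from ES to EHF, highest at MS. In Smad3, a transducer of Nodal and activin signals, chr9:63701733-63703064 had 909, 349, 518, 1018 and 1216 bp. Retinoic acid, Cdx and Hox genes had 2 members (0.131% against 0.419%), both at Rarb, a retinoic acid receptor, one of them (chr14:16574952-16576040) at an internal start with 910, 804, 1012, 1039 and 1055 bp.

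H3K4me1 was read at the members without having chosen them (the plot of both marks by stage). From Pre_PS to EHF, 50%, 98.1%, 94.8%, 98.4%, 98.6% and 92.8% of members overlapped an H3K4me1 peak, and 26.2%, 79.7%, 74.8%, 85.2%, 84.0% and 71.9% of their bases were covered. No member lacked the mark in all 6 lists, and no stable region nearer to gene ends did. It was in all 6 for 708 members (46.3%) and absent at Pre_PS alone for 644 (42.1%). A peak in all 12 lists was found for 290 members (19.0%). Among stable regions at 1 to 50 kb, 53.7% had H3K4me1 in all 6 lists and 21.6% a peak in all 12. Within 1 kb of gene ends these shares were 72.8% and 53.0%.

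Against the 8108 stable regions at 1 to 50 kb from gene ends, the share of members with H3K4me1 was lower in 6 of 6 libraries, by 2.35 percentage points on average (range of the difference -5.81 to -0.295, exact two-sided sign-flip permutation p = 0.03125, adjusted p = 0.0417). Covered bases were lower in 6 of 6 as well, with a mean difference of -1.23 points (-1.93 to -0.479, exact p = 0.03125, adjusted p = 0.0417). With the same number of peaks taken from each list both differences turned positive, to 0.447 points (exact p = 1) and 1.956 points (exact p = 0.03125). Members are also narrower, at a median of 969 bp against 1190 bp, and weighting by width gave -1.14 and -1.20 points, neither past the threshold (exact p = 0.0625 for both). Between members inside genes and those between genes, the covered bases differed by 1.82 points, higher inside genes in 5 of 6 libraries (exact permutation p = 0.0625, adjusted p = 0.0625).

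**Figure D5:**
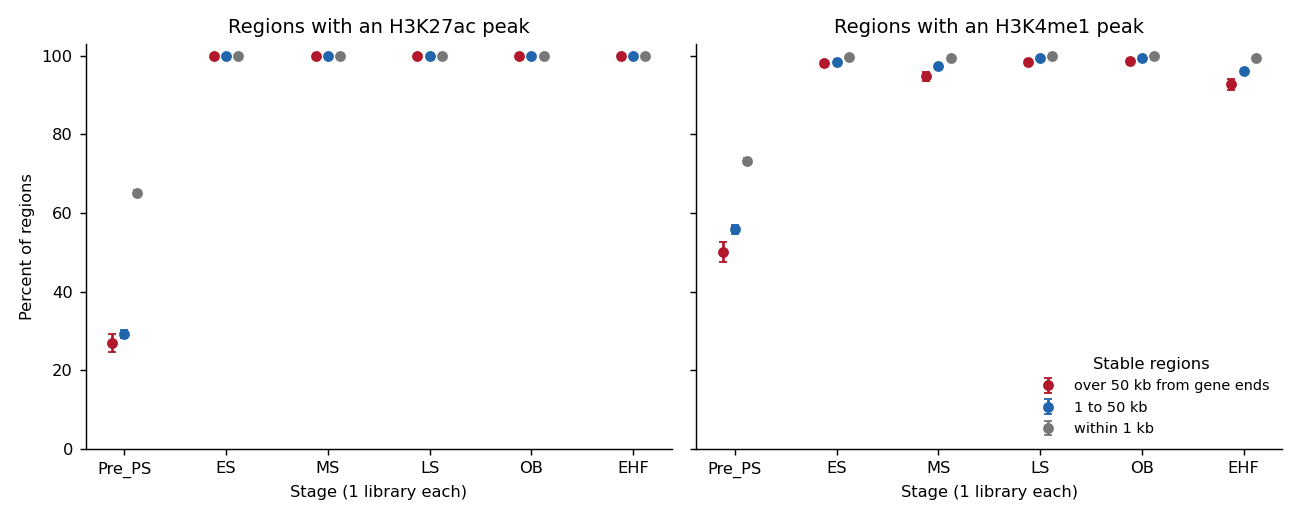
Percent of regions with an H3K27ac (left) or H3K4me1 (right) peak (y axis) by stage (x axis, 1 library each), for stable regions over 50 kb, 1 to 50 kb and within 1 kb of gene ends; bars are 95% Wilson intervals, which cover counting error only, and H3K27ac is 100% from ES on by the choice of regions. At Pre_PS, 26.9% of members had H3K27ac and 50% had H3K4me1, against 65.1% and 73.1% within 1 kb.

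Pre_PS, whose H3K27ac list did not choose the members either, had a peak in 411 of them (26.9%, 95% Wilson interval 24.7% to 29.2%), against 29.1% at 1 to 50 kb and 65.1% within 1 kb of gene ends. Its list held 13398 peaks against 30072 or more in the others, so fewer peaks there and less mark cannot be told apart. With every H3K27ac list cut to the same number of peaks, 253 members were left and the share was 65.2%. The share was 61.3% of members with a coding start, 33.3% with a noncoding start, 28.6% with a noncoding gene end within 1 kb and 21.9% of the 1103 with no annotated start or end. Width moved with it, from 6.01% of the narrowest 383 members to 44.5% of the widest 382.

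Ribosomal RNA genes lay in 2 members. The one with Rn18s-rs5 of the 45S unit (chr17:39842666-39849002) had folds of 202, 704, 470, 520, 366 and 348 from Pre_PS to EHF, and the one with n-R5s136, a 5S gene (chr8:123599921-123602664), 3.28, 5.60, 4.45, 6.64, 4.86 and 4.93. Both genes have many near-identical copies, so reads could not be assigned to 1 copy with certainty. An H3K27ac fold of 40 or more was found in 4 members and in 12 of the 8108 stable regions at 1 to 50 kb. Besides the Rn18s-rs5 member, these members were each 555 to 620 bp wide. They were chr11:109011553-109012136 near Axin2 (169, 125, 101, 89.0 and 75.3 from ES to EHF), chr3:5860334-5860888 near Pex2 (124, 72.0, 102.6, 67.7 and 67.7) and chr15:50364446-50365065 near Trps1 (42.6, 25.4, 35.6, 32.2 and 32.1). Their H3K4me1 folds were high as well. From ES to EHF these were 55.3 to 96.5 near Axin2, 52.1 to 117 near Pex2 and 23.3 to 42.2 near Trps1. The median H3K4me1 fold of members was 5.78 to 9.15 at these stages. These 3 sites were named after their values were seen.

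Just inside the distance threshold were chr14:14012035-14013782 (50040 bp from Thoc7, in Atxn7), chr6:28260596-28262609 (50048 bp, Zfp800) and chr8:120806754-120807496 (50060 bp, Irf8), with 1737, 2002 and 735 bp of H3K27ac at LS. Just outside were chr4:143161306-143162779 (49990 bp, Prdm2), chr6:38203323-38204185 (49954 bp, D630045J12Rik) and chrX:12086670-12092473 (49933 bp, Bcor), with 1181, 486 and 5426 bp.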

How the data were processed

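Peak lists of 12 CoBATCH libraries were used, 1 per stage and mark. Bowtie2, Picard, MACS2, deepTools and the mm10 build are named in the submitters' processing notes, without versions. Settings and cell numbers are not stated. A peak's deposited fold (the authors' ratio of signal over background) only describes peaks of 1 list. Where several peaks of a list overlapped a region, the highest fold was used. The deposited −log10 q ranked peaks in alternatives, and the deposited −log10 p was not used. The deposited score was not used.

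H3K27ac peaks of ES, MS, LS, OB and EHF on chromosomes 1 to 19 and X were merged where they overlapped, and a stage counted as present where a peak overlapped the region. Distances were taken to both outer ends of 21631 protein-coding genes in RefSeq's GRCm38.p6 annotation, the assembly that mm10 names. Transcript starts (32619) came from the RefSeq promoter table, and starts of chromosome 18, with 54 members, are not analysed here. A coding start can thus lie inside a member although the outer ends are over 50 kb away. For 79.9% of protein-coding genes a start was listed.

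Differences in H3K4me1 between sets of regions were taken within each of 6 libraries and tested by exact two-sided sign-flip permutation (smallest p 0.03125), with Benjamini-Hochberg adjustment over 4 tests, of which those on transcript starts and on position inside genes were added after seeing the data. Shares carry 95% Wilson intervals. Scripts were tested on simulated data. Python 3.11.15, pandas 2.3.3, numpy 2.4.6, scipy 1.17.1 and matplotlib 3.10.9 were used.

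Members named are the 10 with most covered bases, the 5 farthest, the 5 largest rises and falls, the 5 places with most members, up to 4 per gene list and up to 10 beside noncoding genes, both ranked by mean covered bases, and those nearest the threshold; members named for their fold, coding start or sequence were chosen after their values were seen. The members and the 16 gene lists were chosen with earlier results of these data known. Alternatives changed the distance, the peaks used, the overlap and the stages.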

Additional observations from a re-analysis of the deposited data

How the results depend on the processing

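The number of members depended on the definition. It was 2830 at 25 kb, 669 at 100 kb, 431 with the ends of all genes, 253 when every H3K27ac list was cut to 13398 peaks and every H3K4me1 list to 35646 (the same number of peaks) and 431 with the upper 50% of each list. The other alternatives, leaving out a stage included, gave 1049 to 1856. The share with H3K27ac at Pre_PS was 31.6% where each stage covered at least 50% of the region, 24.5% at 100 kb, 29.7% with all gene ends, 65.2% with the same number of peaks, 30.4% in the upper 50%, 23.8% without peaks at the lowest fold and 23.4% over 50 kb from coding starts. The share inside genes was 53.2% at 25 kb, 40.1% at 100 kb, 68.0% with all gene ends, 60.1% with the same number of peaks, 56.8% in the upper 50% and 36.8% away from coding starts. The median width was 883 bp at 50% cover, 1317 bp with the same number of peaks, 1229 bp in the upper 50% and 934.5 bp away from coding starts.

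The difference in H3K4me1 share from regions at 1 to 50 kb reversed to 0.447 points with the same number of peaks (exact p = 1). It was -0.647 in the upper 50% (exact p = 0.969), -1.66 without Pre_PS (0.0625, the smallest that 5 libraries allow), -0.960 when H3K4me1 had to cover 50% (0.1875) and -1.14 weighted by width (0.0625). The difference in covered bases reversed to 1.956 with the same number of peaks and to 1.72 in the upper 50% (exact p = 0.0625). It was -2.65 with all gene ends (exact p = 0.09375), -1.38 without Pre_PS and -1.20 weighted by width. The difference by transcript start was 8.77 without Pre_PS, at the smallest p of 0.0625. The cause of these shifts was not tested. No paired analysis was possible because the labels give no replicate numbers and each stage and mark has 1 library; the differences above pair sets of regions within a library, not samples. Depth is not stated, so low depth and less mark at Pre_PS cannot be told apart.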

Other observations

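Chromosomes differed in how many of their regions over 50 kb from gene ends had H3K27ac in all 5 lists. The share was 9.41% on X and 22.2% on chromosome 8, which holds 138 members and the groups at Gse1, Foxl1, Zfhx3, Zfp423 and Foxf1. Coding transcript starts lay within 50 kb of 246 of the 1474 members with known starts (16.7%) and a start of any kind within 50 kb of 867 (58.8%). The median distance to a coding start was 107 kb.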
